A study of Mus musculus with 10 samples.

Results

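Amyloid-degrading proteases are enzymes that cut the amyloid-β peptide, and 9 of their genes were followed in RNA from cortical microglia: Mme, Ide, Mmp9, Mmp2, Mmp14, Ece1, Ece2, Ace and Plau. They were chosen by name, with earlier results of these data known, among 24421 gene symbols listed in the count files. All 9 were found on a line of their own and were among the 18727 genes tested. The 10 libraries came from animals aged 9 months and fell into 3 groups, with 3 libraries of WT, 4 of APP/PS1 and 3 of APP/PS1+N-AS. The APP/PS1 mice carry transgenes for mutant human APP and mutant presenilin 1 and form amyloid plaques; the promoters of the transgenes and the strain background are not given in the sources used here. N-AS is N-acetyl sphingosine, a sphingolipid that was given subcutaneously every day at 30 mg/kg for 8 weeks, starting at 7 months of age, while the study describes vehicle injection for untreated APP/PS1 mice. Each library is a pool of mice, and the cells were taken from papain-dissociated cortex by density gradient, with no marker-based sort. The question asked here is whether the genes for these enzymes differ in RNA level between the groups.

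Amyloid-β is removed from the brain by uptake into cells, by drainage and by proteolysis. Neprilysin (the product of Mme), the endothelin-converting enzymes (Ece1, Ece2) and angiotensin-converting enzyme (Ace) are zinc metallopeptidases that trim small peptides at the cell surface or in vesicles, whereas insulin-degrading enzyme (Ide) encloses whole peptides such as insulin inside its own chamber. The matrix metalloproteinases Mmp2 and Mmp9 are secreted gelatinases, Mmp14 is bound to the membrane and activates pro-Mmp2, and urokinase (Plau) is a serine protease that turns plasminogen into plasmin, which can cut amyloid-β.

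The members belong to several protease families, and the coding sequence around each catalytic site is shown. The type of site differs between some of these families and is shared by others. The sequences were read from GENCODE M21 transcripts (GRCm38), 5′ to 3′ on the coding strand, with the codons of the catalytic motif in capitals and 18 bases of coding sequence on each side.
Mme: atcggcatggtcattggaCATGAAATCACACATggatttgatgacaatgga
Ece1: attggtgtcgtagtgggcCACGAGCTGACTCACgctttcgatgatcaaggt
Ece2: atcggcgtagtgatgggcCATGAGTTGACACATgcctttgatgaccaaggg
Ace, first copy: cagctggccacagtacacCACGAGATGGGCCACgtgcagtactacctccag
Ace, second copy: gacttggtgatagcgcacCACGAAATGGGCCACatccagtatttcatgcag
Ide: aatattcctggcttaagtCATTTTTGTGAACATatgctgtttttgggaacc
Mmp2: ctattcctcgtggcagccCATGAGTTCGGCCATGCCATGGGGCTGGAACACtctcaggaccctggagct
Mmp9: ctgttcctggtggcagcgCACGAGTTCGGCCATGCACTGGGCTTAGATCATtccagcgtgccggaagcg
Mmp14: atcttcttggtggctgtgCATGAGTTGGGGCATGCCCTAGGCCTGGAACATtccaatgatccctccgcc
Plau: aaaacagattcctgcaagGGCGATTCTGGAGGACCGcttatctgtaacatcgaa

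The capitals in Mme, Ece1, Ece2 and Ace encode the short zinc-binding site, His-Glu, any pair of residues, then His, which is found in 3.25% of 21877 coding genes. Ace holds 2 copies of it, since the enzyme has an amino-terminal and a carboxy-terminal catalytic domain. In Ide the order is inverted, His, any pair of residues, then Glu-His, and 2.3% of coding genes hold such a site. The 3 matrix metalloproteinases carry the long zinc site, which contains the short one with a further Gly and His, and is found in 0.315% of coding genes. Plau carries the serine protease site that ends in Gly-Gly-Pro, found in 0.544%. The sites lie at chr3:63362003-63364763 (Mme), chr4:137957154-137958000 (Ece1), chr16:20643872-20644069 (Ece2), chr11:105972892-105972942 and chr11:105985076-105985126 (Ace), chr8:92839261-92839329 (Mmp2), chr2:164951115-164951183 (Mmp9), chr14:54437609-54437677 (Mmp14) and chr14:20841077-20842309 (Plau) on the plus strand, and at chr19:37329118-37329168 on the minus strand (Ide). All are in coding exons, and the ranges for Mme, Ece1, Ece2 and Plau include an intron because those sites span an exon junction.

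The total count per library was 8805804 to 19432075, and the members were covered by between 2 reads (Mmp9 in 1 APP/PS1 library) and 6163 reads (Ece1). WT 1 had the lowest total and yet the fewest genes at 0 reads, 566, against up to 3985 (APP/PS1 1). It also held the highest WT levels of Plau, Mmp2 and Mmp9, and a link between these was not tested. Levels are given as CPM, the share of a library's counts scaled by edgeR's TMM factors, and error is the SD over libraries. Folds come from edgeR's quasi-likelihood test in a model of all 3 groups, with Benjamini-Hochberg adjustment over all genes tested and a threshold of 0.05. Xist, the RNA that coats a silenced X chromosome in females, was at 1.59 to 4.40 CPM in WT, at 453 to 579 CPM in APP/PS1, and at 463, 469 and 2.14 CPM in APP/PS1+N-AS, although the methods name only male mice. Library 3 of APP/PS1+N-AS thus stands apart from the other 2 of its group. Xist did not overlap between APP/PS1 and WT, so genotype and Xist level cannot be told apart in that comparison. The comparisons with APP/PS1+N-AS differ in Xist in some of their libraries, and its part in the results was not tested. The labelled cell type was only partly borne out by its markers, since the neuronal gene Snap25 had a mean of 1249.5 CPM in WT against 35.7 CPM for the microglial gene C1qa, and 12 of 15 microglial markers rose in APP/PS1 against WT. In such bulk samples, fewer cells of a type and less RNA per cell cannot be told apart.

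Per length, Ece1 was the most abundant member and Mmp9 the least in every group. In APP/PS1 libraries the mean CPM per kb of the longest-coding transcript was 50.6 ± 6.99 for Ece1, 22.9 ± 8.02 for Mmp14, 17.2 ± 1.19 for Ace, 9.22 ± 2.27 for Plau, 8.11 ± 0.819 for Ide, 4.33 ± 0.512 for Ece2, 1.83 ± 0.428 for Mmp2, 1.04 ± 0.219 for Mme and 0.569 ± 0.475 for Mmp9 (SD, n = 4). Mmp14 and Ace, Plau and Ide, and Mme and Mmp9 were neighbours whose difference was within the SD of the pair. The length matters for Mme, whose transcript of 8039 bases has only 2250 coding bases, and per coding kb Mme (3.70) stood above Mmp2 (2.84).

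**Figure D1:**
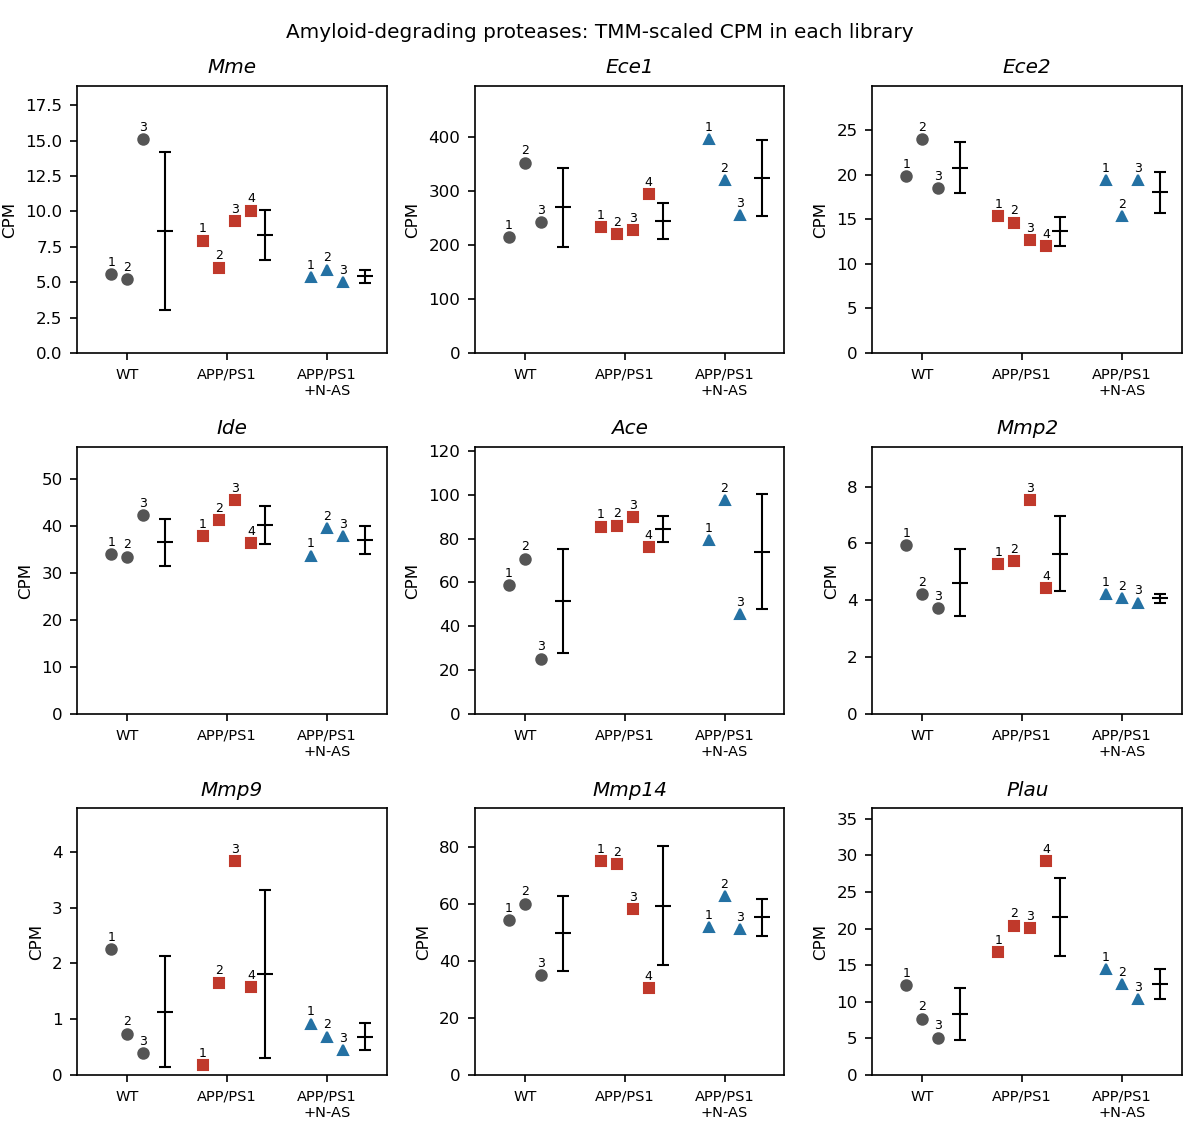
TMM-scaled CPM of the 9 proteases in each library, with the replicate number above each point and, beside the points, the mean and SD of the group (bars). The y axes start at 0 and differ between panels; the APP/PS1 libraries of Plau (16.7 to 29.2 CPM) sit above all WT libraries (5.11 to 12.2 CPM), and those of Ece2 (11.9 to 15.4 CPM) below all WT libraries (18.5 to 24.0 CPM).

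Urokinase was the member that passed the test, and only in APP/PS1 against WT. Plau was at 12.2, 7.68 and 5.11 CPM in WT, at 16.7, 20.4, 20.02 and 29.2 CPM in APP/PS1, and at 14.4, 12.4 and 10.3 CPM in APP/PS1+N-AS, from 103 to 613 reads. Every APP/PS1 library lay above every library of the other groups, while WT and APP/PS1+N-AS overlapped. Plau rose in APP/PS1 against WT by 1.40 on the log2 scale (SE 0.29, 95% interval 0.76 to 2.04), a fold of 2.65 (edgeR adjusted p = 0.0251). Xist separated the same groups, so genotype and Xist level cannot be told apart for this call. In APP/PS1+N-AS against APP/PS1 the log2 difference was -0.80 (SE 0.28, interval -1.42 to -0.19), which did not pass (edgeR adjusted p = 0.509); without APP/PS1+N-AS 3, the library that stands apart by Xist, it was -0.68 (edgeR adjusted p = 0.724). Against WT, APP/PS1+N-AS differed by 0.60 (SE 0.30, interval -0.07 to 1.27, edgeR adjusted p = 0.757). The rise in APP/PS1 lost the threshold without WT 2 (edgeR adjusted p = 0.0873), without APP/PS1 2 (0.0530), without APP/PS1 3 (0.0589) or without APP/PS1 4 (0.0695), with a log2 difference of 1.153 to 1.76 over all 10 omissions of a library. It was also lost with the replicate number as a block (edgeR adjusted p = 0.0578), in a fit of the 2 groups alone (0.0589) and in a fit of libraries 1 to 6 alone (0.0803). The replicate numbers were not taken as pairs in this comparison. Plau passed in 12 of 19 alternatives, among them DESeq2 (adjusted p = 0.000139) and limma with quantile normalization (adjusted p = 0.0113). Within libraries numbered 1 to 6 in the labels the rise was 0.92, and within those numbered 7 to 10 it was 2.21, as differences of mean log2 CPM.

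Microglial markers followed the order of the Plau means between groups, but not the order of the libraries within WT. Their summed level, over 15 genes of which none was at 0, was 1010.4, 1198 and 1518 CPM in WT, 3708, 3940.5, 5116 and 4965 CPM in APP/PS1, and 2813, 3022 and 2186 CPM in APP/PS1+N-AS. The groups did not overlap, in the same order as the Plau means. Within WT the order was opposite, with Plau at 12.2 CPM in WT 1, 7.68 CPM in WT 2 and 5.11 CPM in WT 3. Relative to the mean log2 CPM of those markers, Plau was at -2.62 ± 0.90 in WT, -2.97 ± 0.30 in APP/PS1 and -3.07 ± 0.17 in APP/PS1+N-AS (SD, n = 3, 4 and 3), and the 3 ranges overlapped. The part of the microglial share in the Plau result was not tested.

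Among the neprilysin relatives, Ece2, an endothelin-converting enzyme of acidic vesicles, was lower in APP/PS1. It was at 19.8, 24.0 and 18.5 CPM in WT, at 15.4, 14.6, 12.6 and 11.9 CPM in APP/PS1, and at 19.4, 15.3 and 19.4 CPM in APP/PS1+N-AS. All APP/PS1 libraries lay below all WT libraries, and library 2 of APP/PS1+N-AS lay within the APP/PS1 range. The log2 difference from WT was -0.61 (SE 0.15, interval -0.95 to -0.27), short of the threshold (edgeR adjusted p = 0.0580), and it was -0.54 in libraries 1 to 6 and -0.59 in libraries 7 to 10. With N-AS it was 0.40 (SE 0.15, interval 0.07 to 0.74, edgeR adjusted p = 0.517). Oligodendrocyte markers, 10 genes with none at 0, summed to 7024, 7156 and 2472 CPM in WT. The sums were 4777, 4235, 1980.0 and 2029.7 CPM in APP/PS1, and 2942 to 4023 CPM in APP/PS1+N-AS. WT 3 thus lay below APP/PS1 1 and 2 in these markers but above them in Ece2. Of the 10 markers, 3 fell in APP/PS1 against WT, beside 149 of all 18727 genes tested. Of 15 microglial markers, 12 rose, beside 500 of all genes. The part of these markers in the Ece2 level was not tested. A protein-coding gene of the annotation, Gm49333, overlaps Ece2 on the same strand and is not among the listed symbols, so reads of either could have been counted as Ece2. Ide overlaps the pseudogene Rpl10-ps6, and Ece1 and Ace overlap the antisense genes Gm13012 and Gm11651; the strand setting of the counting is not given in the sources used here.

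Mme, which encodes neprilysin, was spread by 1 WT library. It was at 5.59, 5.201 and 15.1 CPM in WT, at 7.94, 6.03, 9.29 and 10.05 CPM in APP/PS1, and at 5.34, 5.88 and 5.02 CPM in APP/PS1+N-AS. WT 3 was the highest of all libraries, and the APP/PS1+N-AS libraries were all below the APP/PS1 libraries. The log2 difference was -0.07 (SE 0.34, interval -0.82 to 0.69, edgeR adjusted p = 0.948) for APP/PS1 against WT and -0.62 (SE 0.35, interval -1.40 to 0.15, edgeR adjusted p = 0.638) for APP/PS1+N-AS against APP/PS1. Without WT 3 the first turned to 0.64 (edgeR adjusted p = 0.128). Neuronal markers, 10 genes with none at 0, summed to 5337 CPM in WT 3 and to 1670.0 to 3123 CPM in the other 9 libraries. The next highest sum, 3123 CPM, was in APP/PS1+N-AS 3, which had the lowest Mme level of all libraries (5.02 CPM). The part of neuronal RNA in the Mme level was not tested.

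Ece1, which activates endothelin, was at 215, 352 and 241 CPM in WT, at 233, 220.1, 228 and 293 CPM in APP/PS1, and at 395, 319 and 255 CPM in APP/PS1+N-AS. The groups overlapped in every comparison. The log2 difference was -0.14 (SE 0.21, interval -0.62 to 0.33, edgeR adjusted p = 0.787) against WT and 0.41 (SE 0.21, interval -0.07 to 0.88, edgeR adjusted p = 0.616) with N-AS.

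Ide was among the steadiest members, with an SD of 8.14% to 13.6% of the mean in each group. It was at 34.0, 33.5 and 42.4 CPM in WT, at 37.9, 41.2, 45.5 and 36.3 CPM in APP/PS1, and at 33.7, 39.6 and 37.9 CPM in APP/PS1+N-AS. The groups overlapped. Its intervals were the narrowest of the 9: the log2 difference was 0.13 (interval -0.16 to 0.42, edgeR adjusted p = 0.671) for APP/PS1 against WT and -0.12 (interval -0.41 to 0.17, edgeR adjusted p = 0.840) for APP/PS1+N-AS against APP/PS1.

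Ace, which converts angiotensin I and has both catalytic domains shown above, was at 58.7, 70.9 and 25.3 CPM in WT, at 85.4, 85.9, 89.8 and 76.1 CPM in APP/PS1, and at 79.4, 97.4 and 45.4 CPM in APP/PS1+N-AS. The APP/PS1 libraries lay above the WT libraries, and library 3 of WT and of APP/PS1+N-AS were the lowest of their groups. The log2 difference of APP/PS1 from WT was 0.71 (SE 0.33, interval -0.01 to 1.43, edgeR adjusted p = 0.299), and with N-AS it was -0.19 (SE 0.32, interval -0.89 to 0.52, edgeR adjusted p = 0.902). Choroid plexus markers, 8 genes with none at 0, summed to 227 CPM in WT 3 and 220.1 CPM in APP/PS1+N-AS 3 and to 1071 to 2176 CPM in the other 8 libraries. In those lowest libraries the sum was carried by Enpp2 (217 and 209 CPM), with Ttr at 1.74 and 0.665 CPM. Endothelial markers (551 CPM, 1049 to 1493 CPM elsewhere) and mural markers (518 CPM, 974 to 2081 CPM elsewhere) were also lowest in WT 3. They were not lowest in APP/PS1+N-AS 3 (1097 and 1277 CPM). The part of these cell types in the Ace level was not tested. Leaving out APP/PS1+N-AS 3, the N-AS difference was 0.08.

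The matrix metalloproteinases gave no called difference. Mmp14 was at 54.3, 60.2 and 35.0 CPM in WT, at 75.1, 74.1, 58.3 and 30.5 CPM in APP/PS1, and at 51.9, 62.9 and 51.3 CPM in APP/PS1+N-AS, with overlapping groups. Its log2 difference was 0.26 (interval -0.38 to 0.89) for APP/PS1 against WT and -0.10 (interval -0.74 to 0.53) with N-AS. Mmp2, the gelatinase it activates, was at 5.94, 4.21 and 3.71 CPM in WT, at 5.26, 5.37, 7.51 and 4.43 CPM in APP/PS1, and at 4.22, 4.08 and 3.92 CPM in APP/PS1+N-AS. The last group lay below every APP/PS1 library, with a log2 difference of -0.47 (SE 0.24, interval -0.99 to 0.06, edgeR adjusted p = 0.604). Mmp9, the other gelatinase and a granule product of neutrophils, was at 2.26, 0.743 and 0.386 CPM in WT, at 0.173, 1.65, 3.83 and 1.57 CPM in APP/PS1, and at 0.922, 0.689 and 0.443 CPM in APP/PS1+N-AS. At 2 to 56 reads its interval was wide, -1.04 to 2.58 for APP/PS1 against WT and -3.23 to 0.45 with N-AS, and its SD was 88.1% of the mean in WT and 83.5% in APP/PS1. No difference in Mmp9 was shown, and the shares of counting error and of other spread between libraries were not tested. The highest library of Mmp2 and of Mmp9 was APP/PS1 3, where fibroblast markers summed to 533 CPM (115 to 204 CPM in the other libraries) and neutrophil markers to 144 CPM (4.90 to 20.4 CPM in the other libraries); their part in the levels was not tested. All 8 neutrophil markers were highest in that library, whereas 3 of 7 fibroblast markers were, and the fibroblast sum was carried by Col1a1 (149.7 CPM) and Col1a2 (314 CPM). Col3a1 (24.3 CPM) and Dcn (16.1 CPM) were within the range of the other libraries, which reached 36.1 and 22.4 CPM. Without APP/PS1 3 the log2 difference with N-AS was -0.73 for Mmp9 and -0.30 for Mmp2.

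**Figure D2:**
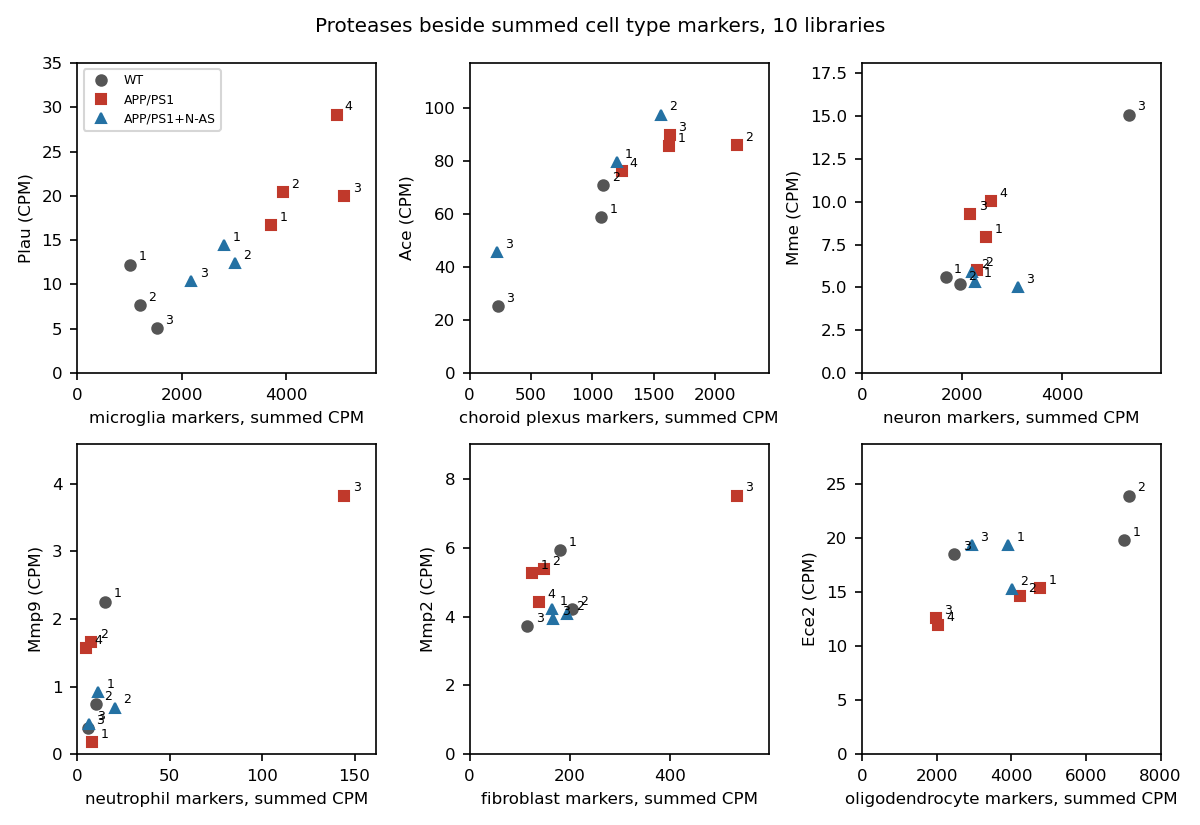
CPM of 6 members against the summed CPM of a marker list in the same 10 libraries, with replicate numbers beside the points; both axes start at 0. The pairs were chosen after their values were seen. The lowest Ace levels, in library 3 of WT and of APP/PS1+N-AS, sit at choroid plexus sums of 227 and 220.1 CPM.

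In all, APP/PS1 microglia against WT gave 1 member higher and 0 lower among 9. Of all genes tested, 3.47% were called, and 2.67% were called higher. Plau and Ace did not overlap with WT on the higher side, and Ece2 on the lower, beside 8.15% and 6.73% of all genes. The median log2 difference of the members was 0.26, and that of all genes -0.07. For APP/PS1+N-AS against APP/PS1, edgeR called 0 of 9 members and 0% of all genes (DESeq2 called 73 genes and 0 members). At an unadjusted p under 0.05 it gave Plau and Ece2, beside 8.83% of all genes, and 3 members, Plau, Mme and Mmp2, lay below every APP/PS1 library, beside 6.46% of all genes. The median log2 difference was -0.19 for the members and -0.01 for all genes. Of the 3 pairs of libraries that share a replicate number in these groups, Plau, Mme, Ide, Mmp2 and Mmp14 were lower with N-AS in 3 of 3 and Ece1 and Ece2 were higher in 3 of 3, so 7 of 9 members lay in 1 direction, beside 39.9% of all genes, while Ace and Mmp9 were mixed. With the number as a block, the log2 difference was -0.66 for Plau, -0.46 for Mme, 0.35 for Ece2 and 0.49 for Ece1, and no member passed (edgeR adjusted p = 0.594 to 0.808). The pairs leave out APP/PS1 4, and only 1 of the 3 APP/PS1+N-AS libraries correlated best with its own number. A pairing and the set of library numbers cannot be told apart here. APP/PS1+N-AS against WT called 0 of 9 members with edgeR (0.187% of all genes), none had an unadjusted p under 0.05 (6.73% of all genes), DESeq2 called 0 members, and no member separated the groups (8.81% of all genes). The log2 differences there ran from -0.69 for Mme to 0.60 for Plau, with edgeR adjusted p of 0.757 to 0.996. These comparisons share libraries and are not independent.

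**Figure D3:**
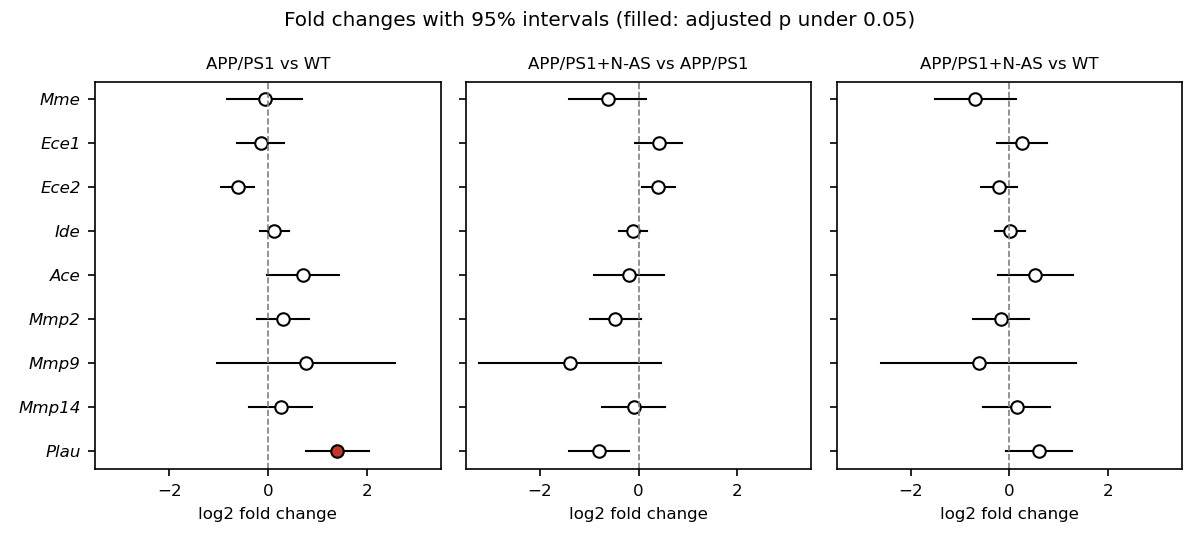
Log2 fold changes (points) with 95% intervals (lines) of the 9 proteases in the 3 comparisons, from edgeR; filled points have an adjusted p under 0.05. Plau in APP/PS1 against WT, at 1.40, is the filled point, and the Mmp9 intervals are the widest.

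The related genes come from lists of the same pathways. The genes among them that rose in APP/PS1 against WT did so beside the microglial markers, of which 12 of 15 rose with a median log2 difference of 1.76, and beside a list of disease-associated microglial genes, of which 9 of 10 rose with a median of 2.43; their part in these levels was not tested. Of 6 plasminogen activator genes described here besides Plau, 2 rose in APP/PS1 against WT and 0 fell, namely Serpine2, a serine protease inhibitor (1.78, edgeR adjusted p = 0.00171), and Plaur, the urokinase receptor (1.91, edgeR adjusted p = 0.0448). Plaur was at 7.13, 7.43 and 1.69 CPM in WT, at 21.1, 24.7, 17.1 and 16.7 CPM in APP/PS1, and at 15.3, 12.9 and 6.80 CPM in APP/PS1+N-AS. All APP/PS1 libraries were above the others. Plg, the gene of plasminogen itself, had at most 12 reads in a library and was not tested. Plat, the tissue-type activator, which was picked after its values were seen, differed by 0.11 (interval -0.47 to 0.69). The log2 ratio of Plau to Plaur was 0.78 ± 0.74 in WT, 0.10 ± 0.53 in APP/PS1 and 0.15 ± 0.39 in APP/PS1+N-AS (SD, n = 3, 4 and 3).

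**Figure D4:**
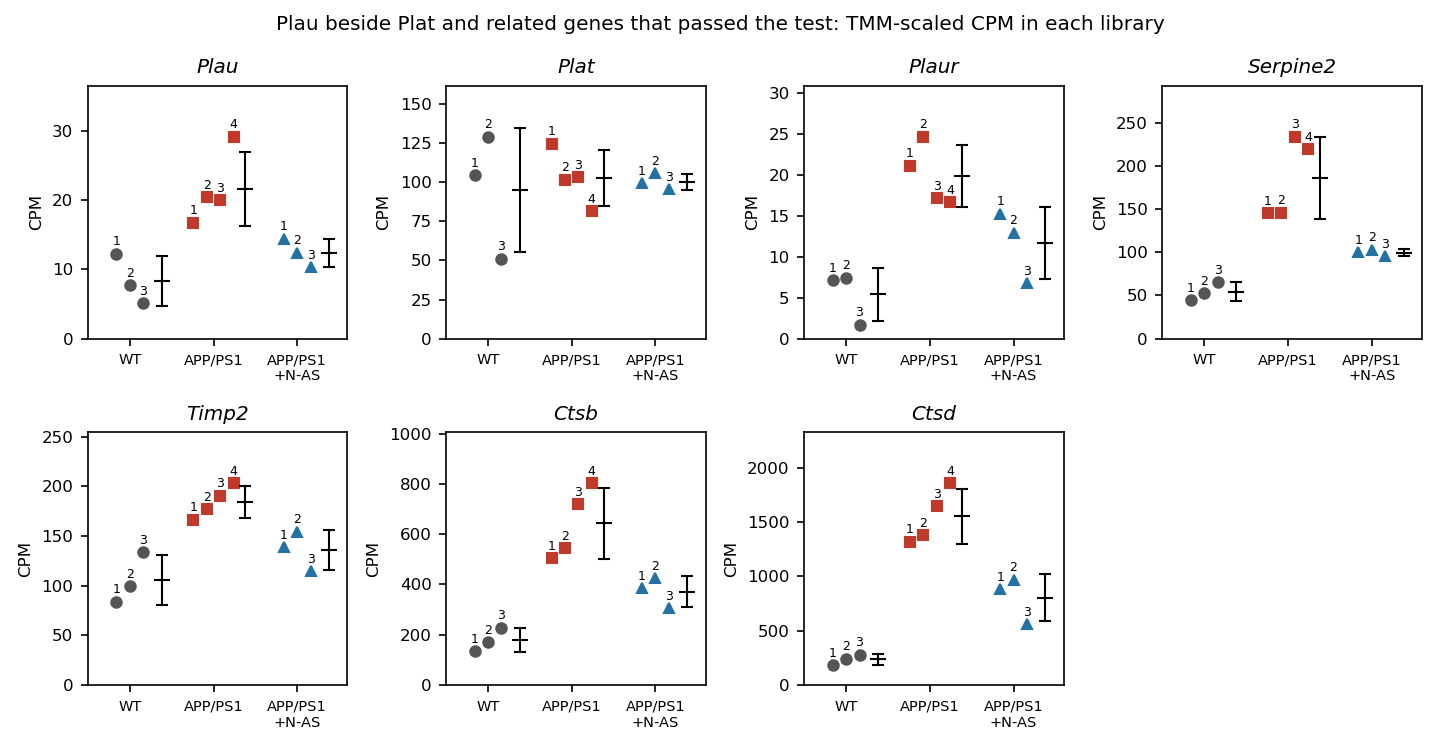
TMM-scaled CPM in each library of Plau, Plat and related genes that passed the test in APP/PS1 against WT, with the group mean and SD (bars) and y axes from 0. Plaur, Serpine2, Timp2, Ctsb and Ctsd have all their APP/PS1 points above all their WT points, and Plat overlaps.

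Among 11 other amyloid-degrading enzymes tested, 2 rose and 0 fell in APP/PS1 against WT: the lysosomal proteases Ctsd (2.72, edgeR adjusted p = 0.000545) and Ctsb (1.85, edgeR adjusted p = 0.00289). Ctsd was at 185 to 279 CPM in WT, 1317 to 1858 CPM in APP/PS1 and 562 to 970.2 CPM in APP/PS1+N-AS, with no overlap between groups. It also rose in APP/PS1+N-AS against WT (1.78, edgeR adjusted p = 0.0256). Of 6 metalloproteinase inhibitors, 1 rose, Timp2, which inhibits Mmp2 and takes part in its activation by Mmp14 (0.80, edgeR adjusted p = 0.0380). Of 9 relatives of Mme, Ide and Ace, 12 other matrix metalloproteinases and 17 peptide substrates and receptors, 0 passed in any comparison with edgeR; 0, 1 and 0 of them had an unadjusted p under 0.05 in APP/PS1+N-AS against APP/PS1. That 1 was Mmp15, a membrane-bound relative of Mmp14 picked after its values were seen, with a log2 difference of -0.52 (interval -0.82 to -0.22). The most abundant were Nrd1 and Phex, Mmp16 and Mmp17, and Insr and Ednrb, with log2 differences of -0.16, 0.72, -0.11, -0.50, 0.50 and 0.50 in APP/PS1 against WT. None of the lists had a called gene in APP/PS1+N-AS against APP/PS1.

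Across the 10 libraries, the 3 genes with the highest Pearson r of log2 CPM were Crlf2 (0.982), Pyroxd2 and Vkorc1 for Plau, Kif1c (0.986), Icam1 and Rin3 for Ace, Kctd3 (0.963), Cpne9 and Bcan for Ece2, and Ramp3 (0.953), Nxph1 and Fyn for Mme. They were Cxcl15 (0.961), Pgm5 and Gna13 for Ece1, Sppl3 (0.929), Tceal8 and Commd3 for Ide, Casc5 (0.945), Aurkb and Ibsp for Mmp2, Tgm4 (0.944), Tbccd1 and Dach2 for Mmp9, and Rab3d (0.944), Gcfc2 and Map2k3 for Mmp14. The highest r among 18727 genes over 10 libraries is large by selection, so these values describe likeness alone. Among the 36 pairs of members the median r was -0.01, from -0.78 for Ece2 and Plau to 0.74 for Ace and Plau. These are descriptions over libraries of 3 groups, and the libraries differ in depth and cell content, whose part in the correlations was not tested.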

How the data were processed

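Total RNA of cortical microglia was depleted of ribosomal RNA and made into stranded libraries; the authors aligned paired reads with TopHat to mm10, and the deposited values are raw read counts per gene symbol, without normalization. The annotation, tool versions and strand setting of the counting are not given in the sources used here, and edgeR is named in the submitters' processing notes without a role. From the counts, 103 lines that share 43 symbols were summed, genes were filtered with filterByExpr, which left 18727 for testing by edgeR 4.0.16 under R 4.3.3 (TMM, glmQLFit, glmQLFTest, 1 model of 3 groups). The study's FPKM and quantile normalization were not used. Log2 CPM had a prior count of 2. The common dispersion was 0.0752. Total counts were 8805804 to 19432075, and counting error alone understates the spread between libraries. The methods name no molecular identifiers, and the part of PCR copies in that spread was not tested. The labels do not say how the pooled animals were divided, so p-values measure only the spread between these libraries. No pair of replicates agreed within sampling noise (12 pairs, chi-square per degree of freedom 12.5 to 122).

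The members and lists were chosen with earlier results of these data known. Named genes were all members, list genes that passed (at most 4 per list and comparison), the 2 most abundant genes of lists where none passed, and for each member the 3 genes with the highest r, leaving out predicted genes. Replicate numbers in the titles were checked by correlating libraries after removal of group means. For APP/PS1+N-AS and APP/PS1, every same-numbered pair was above 0.1 (0.142 to 0.309), so the numbers were taken as pairs there; for the other comparisons they were not (-0.485 to 0.441 and -0.136 to 0.348). Alternatives were DESeq2 1.42.0, limma 3.58.1 with quantile normalization, total counts, no filter, the replicate block, a covariate for the set of library numbers, a minimum of 10 counts per library, a fit of the 2 groups compared, each library left out, and, chosen after seeing the data, libraries 1 to 6 only. Tests were tried on simulated data. An item of the related lists is not reported here. Sequences and positions came from GENCODE M21.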

Additional observations from a re-analysis of the deposited data

How the results depend on the processing

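The 1 call among members in APP/PS1 against WT became 2 (Plau and Ece2) with DESeq2, with at least 10 counts in every library or with library numbers as a covariate, and 0 with the replicate block, with a fit of the 2 groups or, chosen after seeing the data, with libraries 1 to 6 only; leaving out a library gave 0 to 2. In those last 3 fits Plau had a log2 difference of 1.29, 1.41 and 0.89 (edgeR adjusted p = 0.0578, 0.0589 and 0.0803). Plau passed in 12 of 19 alternatives (adjusted p 0.000139 to 0.0873) and Ece2 in 4 (0.0188 to 0.176). No member passed in the other comparisons under any alternative; with the replicate block, APP/PS1+N-AS against APP/PS1 still had 0 calls.

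Genes called in APP/PS1 against WT were 649 and became 1296 (DESeq2), 326 (replicate block), 1055 (library covariate), 410 (2 groups), and 299 to 923 without a library. In APP/PS1+N-AS against APP/PS1 they were 0 and became 73 (DESeq2), 11 (libraries 1 to 6), and 0 to 1 without a library. In APP/PS1+N-AS against WT they were 35 and became 180 (DESeq2), 20 (quantile), 5 (replicate block), 64 (library covariate), 2 (2 groups), 437 (libraries 1 to 6), and 1 to 116 without a library.

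No reversed value was called. With quantile normalization, Mme turned to 0.068 in APP/PS1 against WT, and Ide to -0.0064 and Mmp9 to 0.21 in APP/PS1+N-AS against WT; Ide turned to -0.0037 there with at least 10 counts, where Mmp9 could not be fitted. With libraries 1 to 6, APP/PS1 against WT gave 0.34 for Mme and -0.70 for Mmp9, Ace turned to 0.040 with N-AS, and APP/PS1+N-AS against WT gave 0.022 for Mme and -0.036 for Mmp14. Without a library, the ranges that crossed 0 were -0.33 to 0.64 (Mme) and -0.28 to 0.10 (Ece1) in APP/PS1 against WT, -0.33 to 0.033 (Mmp14) and -0.43 to 0.077 (Ace) in APP/PS1+N-AS against APP/PS1, and -0.95 to 0.019 (Mme), -0.039 to 0.14 (Ide), -1.05 to 0.30 (Mmp9), -0.29 to 0.043 (Mmp2) and -0.042 to 0.32 (Mmp14) in APP/PS1+N-AS against WT. The causes were not tested. Mmp9 had 2 to 56 reads a library.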
